A study of Drosophila melanogaster with 6 samples.

Results

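The Cmi peaks of a cultured cell line were set beside those of the whole larva. Cmi, also called Lpt, is a subunit of the Drosophila MLR complex, and its binding was mapped by chromatin immunoprecipitation followed by sequencing (ChIP-seq), which reports the stretches of the genome that an antibody enriches as peaks. Members were all peaks of the S2 cell list and of the larva list that lie on the chromosome arms 2L, 2R, 3L, 3R, 4 and X. There were 12176 of them, 5750 from S2 cells and 6426 from larvae, out of 37144 peaks in the 4 lists of the series. Peaks of the S2 and larva lists that overlapped by 1 bp or more were called paired, and the rest S2-only or larva-only.

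The S2 sample came from S2 cells, a line of embryonic origin whose genome is known to be aneuploid. The larva sample came from whole animals of the third instar at the wandering stage, taken from the walls of the culture bottles, so its peaks stem from a mixture of tissues. The number of animals is not given in the sources used here. Both were fixed with 1.8% formaldehyde and precipitated with the same Cmi antiserum, and the labels give the genotype Y cn bw sp to all samples, the S2 cells included. Neither group received a treatment according to the labels. Each group has 1 ChIP library and 1 input library, and the input libraries have no values here. A white prepupa list from the same study and an embryo list based on earlier published data served as outside readouts. With 1 library per group there is no replicate error and no test. The 95% intervals given are exact binomial (Clopper-Pearson) intervals over peaks and cover counting error only, and neighbouring peaks are not independent of each other. Sequencing depth is unknown, so fewer called peaks and less binding cannot be told apart.

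The MLR complex corresponds to the KMT2C and KMT2D complexes of mammals and deposits monomethyl marks on lysine 4 of histone H3, mainly at enhancers. In flies the roles of the long mammalian protein are divided between Trr, which carries the methyltransferase domain, and Cmi, which carries PHD fingers that read chromatin. The complex also acts as a coactivator of the ecdysone receptor, whose hormone drives larval moults and the onset of metamorphosis. Enhancer use differs strongly between cell types. The lists hold positions without heights or gene names, so regions are named by their dm3 coordinates, counted from 1.

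Paired and unpaired Cmi peaks were of similar number in S2 cells, and unpaired peaks were the more numerous in larvae. Of the S2 peaks, 2856 of 5750 (49.7%, 95% interval 48.4 to 50.97) were paired, and 2894 (50.3%) were S2-only. Of the larva peaks, 2875 of 6426 (44.7%, 43.5 to 46.0) were paired, and 3551 (55.3%) were larva-only. Paired peaks formed 2375 groups of linked peaks. In 1740 of these groups (73.3%) 1 S2 peak met 1 larva peak. A further 241 groups joined 1 S2 peak to several larva peaks, 294 joined several S2 peaks to 1 larva peak, and 100 held several of each. Division of a bound stretch into more peaks was thus seen in either direction at similar frequency. Of the paired S2 peaks 358 (12.5%) overlapped 2 or more larva peaks, and of the paired larva peaks 410 (14.3%) overlapped 2 or more S2 peaks.

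The threshold of 1 bp divided few peaks that were close to it. Of the 3356 overlaps between a peak of each list, 71 were of 1 to 50 bp and 67 of more than 50 and up to 100 bp, and the median overlap was 667.5 bp. Just outside the threshold, 21 S2-only peaks and 17 larva-only peaks had a gap of less than 50 bp to the other list.

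In base pairs the S2 and larva lists shared less than either held alone. S2 peaks covered 7.39 Mb, larva peaks 7.62 Mb, and 3.43 Mb lay in both. The shared sequence was 46.4% of the S2 coverage and 45.0% of the larva coverage, or 29.6% of the 11.6 Mb covered by either. Unpaired peaks accounted for 2.29 Mb in S2 cells (31.0% of the coverage) and 3.06 Mb in larvae (40.1%). The remaining unshared sequence lay in paired peaks, with 1.67 Mb in S2 cells and 1.14 Mb in larvae. It includes flanks and also gaps between several partners of 1 broad peak, which were not separated. Within paired peaks, 67.3% of the S2 sequence and 75.1% of the larva sequence was common to both. More unshared sequence within paired peaks was therefore on the S2 side, and more sequence in separate peaks was on the larva side. These shares depend on the deposited widths. With every peak set to 500 bp about its midpoint, the shared part fell to 19.5% of the S2 and 17.5% of the larva coverage, and 32.7% of S2 peaks and 29.0% of larva peaks were paired.

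Paired Cmi peaks were the broad ones in either list. The median width was 1133 bp for paired S2 peaks (interval 1077 to 1178) and 555 bp for S2-only peaks (543 to 569), a ratio of 2.04. For larvae the medians were 1163 bp (1116 to 1203) and 644 bp (624 to 657), a ratio of 1.81. Larva-only peaks were thus somewhat broader than S2-only peaks, while the paired peaks of the lists had medians with overlapping intervals. A broad peak also has more sequence with which to meet another peak. Of the peaks narrower than 500 bp, 29.6% (27.5 to 31.8) of S2 and 28.8% (26.7 to 31.0) of larva peaks were paired. From 1000 to under 2000 bp the shares were 63.6% (60.8 to 66.3) and 54.4% (52.0 to 56.8). At 4000 bp or more they reached 90.5% (86.5 to 93.6) of 294 S2 peaks and 87.6% (82.2 to 91.9) of 194 larva peaks. Within the classes from 500 to under 4000 bp the paired share was higher for S2 than for larva peaks with intervals that did not overlap, while the intervals overlapped in the narrowest and the broadest class.

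**Figure D1:**
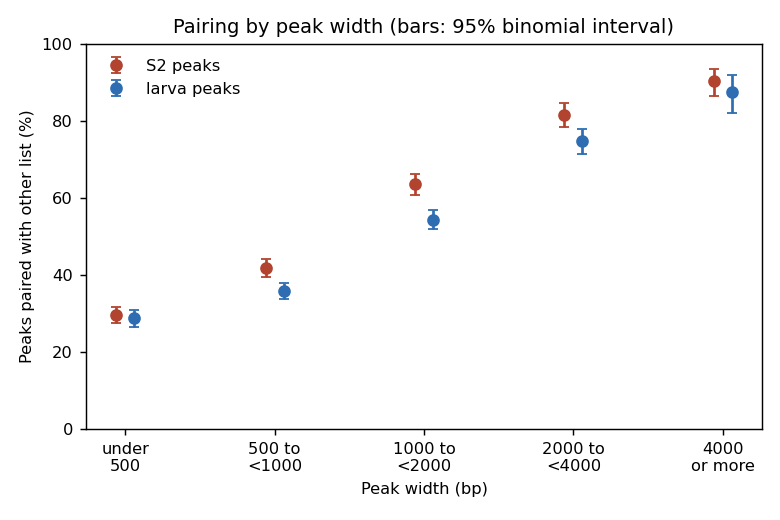
Share of Cmi peaks paired with the other list (vertical axis, %) by peak width (horizontal axis, bp), for S2 peaks (red) and larva peaks (blue), with exact binomial 95% intervals over peaks. The share rises from 29.6% to 90.5% in S2 cells and from 28.8% to 87.6% in larvae.

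Across the 1740 pairs of 1 S2 peak with 1 larva peak, widths were similar on the whole and differed widely pair by pair. The median width was 1111 bp in S2 cells (interval 1045 to 1176) and 1115 bp in larvae (1056 to 1165). The median ratio of S2 to larva width was 1.07 (1.03 to 1.10), or 0.09 on the log2 scale, with quartiles of -0.62 and 0.76. The S2 peak was the wider in 944 pairs (54.3%, 51.9 to 56.6) and the larva peak in 795 (45.7%). The S2 peak was more than 2 times as wide in 323 pairs and the larva peak in 292. The widths rose together only loosely, with a Pearson r of 0.41 on log2 widths and a Spearman rho of 0.38 over pairs. These describe pairs within 1 library each, and widths had a lower limit of 340 bp in S2 cells and 320 bp in larvae. Where the larva peak was under 500 bp, the median S2 partner was 792 bp wide, and where it was 4000 bp or more, 4475 bp.

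The 2 peaks of such a pair usually lay within each other rather than side by side. The larva peak was wholly inside the S2 peak in 566 pairs (32.5%), the S2 peak inside the larva peak in 462 (26.6%), and each reached past the other in 712 (40.9%). The median pair shared 690.5 bp (interval 662 to 732), which was 78.1% of the S2 peak and 83.7% of the larva peak. In 979 pairs (56.3%, 53.9 to 58.6) the shared part was at least 50% of either peak. The midpoints were 204 bp apart in the median, 470 pairs (27.0%) had midpoints within 100 bp, and 323 (18.6%) had midpoints more than 500 bp apart.

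**Figure D2:**
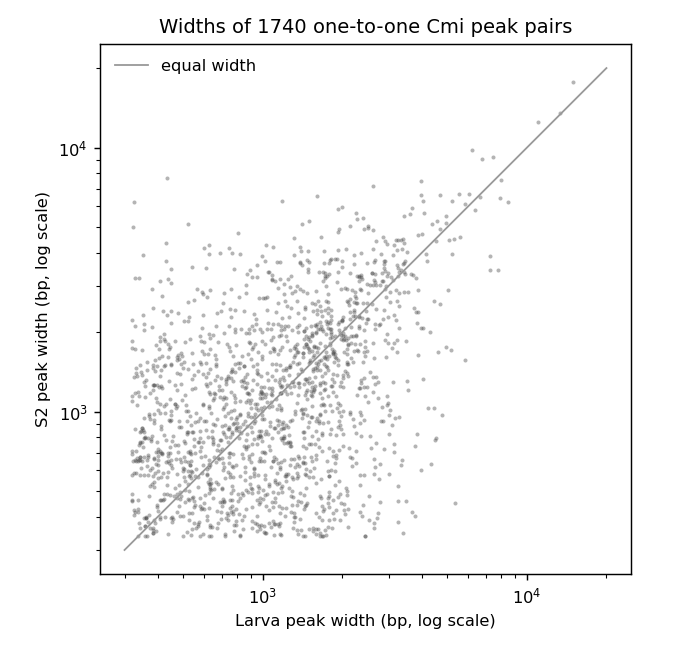
Width of the S2 peak (vertical axis, bp, log scale) against that of the larva peak (horizontal axis, bp, log scale) in the 1740 pairs of 1 peak each; points are pairs and the line marks equal width. Points scatter widely on either side of the line, with 944 above it and 795 below.

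The width of paired peaks varied with the chromosome arm. On 2R the median log2 ratio of S2 to larva width was 0.22 (interval 0.14 to 0.31, 415 pairs) and on 3R it was also 0.22 (0.14 to 0.30, 493 pairs), so S2 peaks were the broader there. On 3L it was 0.00 (-0.09 to 0.11), on X -0.09 (-0.36 to 0.07) and on 2L -0.16 (-0.26 to 0.01), intervals that include 0. On X the median widths were 1007 bp in S2 cells and 1405 bp in larvae, against 1178 bp and 1046 bp on 2R. Chromosome 4 held 6 such pairs, too few for a direction.

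Some pairs joined peaks of very unequal width. On X an S2 peak of 6249 bp (1979456 to 1985704) met a larva peak of 327 bp at its left edge, 19.1 times narrower. On 3L an S2 peak of 7646 bp (22935810 to 22943455) enclosed a larva peak of 436 bp, and on 2R one of 5000 bp (14290839 to 14295838) enclosed a larva peak of 322 bp. The other 2 of the 5 most unequal pairs in this direction were on 3L, from 8652577 to 8656508 and from 773632 to 777976. In the reverse direction the largest ratio was 11.9, on 3R, where a larva peak of 5360 bp (13535952 to 13541311) enclosed an S2 peak of 452 bp. It was followed by 3R from 22792015 to 22795419 (3405 bp against 348 bp), 2R from 10152686 to 10156452 (3767 bp against 405 bp), 2R from 4030554 to 4034213 (3660 bp against 418 bp) and 2L from 21621765 to 21625004 (3240 bp against 383 bp). In all 10 of these pairs the narrow peak was under 500 bp.

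The groups with the most shared sequence were broad domains in S2 cells and larvae alike, which their choice by shared base pairs requires. On X from 7584605 to 7605453, 2 S2 peaks with 18944 bp and 4 larva peaks with 19099 bp shared 17194 bp. On 3R from 12054231 to 12072023, 1 S2 peak of 17793 bp held 4 larva peaks with 16963 bp, all of it shared. On 2R from 2018227 to 2037142, 1 S2 peak of 18743 bp and 4 larva peaks shared 15030 bp. A continuous S2 domain stood against several larva peaks in these last 2 groups. On X from 2186055 to 2203726 a single larva peak of 14933 bp lay inside a single S2 peak of 17672 bp. On 2R from 7077830 to 7095584, 3 S2 and 4 larva peaks shared 14244 bp. In all 5 groups the shared part was 80.2% or more of the S2 and 90.0% or more of the larva sequence. The choice by shared base pairs favours such high shares.

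Other broad peaks were broken up in the opposite list with much of their length uncovered. The S2 peak on 3L from 8677273 to 8694726 overlapped 10 larva peaks, which covered 56.3% of its 17454 bp. S2 peaks on 3R from 25595448 to 25613152 and on 2L from 8414865 to 8427562 overlapped 8 and 7 larva peaks. Among larva peaks the most divided was on 3L from 19888136 to 19897584, where 6 S2 peaks covered 62.6% of 9449 bp. Larva peaks on 3R from 2227872 to 2237058 and on X from 1835192 to 1847395 overlapped 5 S2 peaks each.

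S2-only peaks lay closer to a larva peak than larva-only peaks did to an S2 peak. The median gap was 3386.5 bp for S2-only peaks (quartiles 1114.75 and 9076.75) and 10366 bp for larva-only peaks (quartiles 2819 and 32609.5). Within 500 bp of the other list lay 12.2% (11.0 to 13.4) of S2-only and 6.34% (5.56 to 7.19) of larva-only peaks. More than 20 kb away lay 12.7% (11.5 to 14.0) and 35.7% (34.1 to 37.3). Many larva-only peaks were thus in stretches of the genome without an S2 peak nearby. The larva list has 676 more peaks on the arms than the S2 list, which shortens the distance to it.

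Among the 5 widest unpaired peaks of each list, 2 S2-only and 5 larva-only peaks overlapped a prepupa peak, and 4 S2-only and 3 larva-only peaks an embryo peak. Of all unpaired peaks of 4000 bp or more, 16 of 28 S2-only and 24 of 24 larva-only peaks overlapped a prepupa peak. For the embryo list these were 18 of 28 and 20 of 24. The 5 peaks of each list are too few to read a difference from. The widest S2-only peak was on 2R from 6956075 to 6965243 (9169 bp), 5346 bp from the nearest larva peak, and overlapped both an embryo and a prepupa peak. Next came X from 21594860 to 21602694 (7835 bp), with neither, and 3R from 11845746 to 11853387 (7642 bp), with both. The fourth and the fifth, on 3L from 24456714 to 24464017 (7304 bp) and on 3R from 22694066 to 22699784 (5719 bp), overlapped an embryo peak only. The 5 widest larva-only peaks lay on 3L from 19548987 to 19556030 (7044 bp), on 2L from 18463523 to 18469238 (5716 bp) and on X from 1718228 to 1723834, from 17771782 to 17777065 and from 1503236 to 1508479 (5607, 5284 and 5244 bp). The 3L and 2L peaks and the X peak at 17771782 overlapped an embryo peak as well.

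Paired peaks of the S2 and larva lists are divided alike among the arms by construction, and unpaired ones were not. X held 22.2% (20.8 to 23.6) of larva-only peaks and 11.7% (10.6 to 12.9) of S2-only peaks, where it makes up 18.6% of the span of the arms. Paired peaks were on X in 12.1% (S2) and 11.8% (larva) of cases. The X-linked part of S2-only peaks was thus close to that of paired peaks, and that of larva-only peaks was higher. Per Mb of X there were 35.2 larva-only, 15.1 S2-only and 15.4 paired S2 peaks. Read the other way, 70.0% (67.2 to 72.6) of the larva peaks on X were unpaired, against 55.3% over all arms, whereas 49.5% (45.7 to 53.3) of the S2 peaks on X were unpaired, against 50.3%.

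On the second chromosome S2-only peaks favoured 2R and larva-only peaks leaned weakly to 2L. S2 cells had 801 S2-only peaks on 2R and 427 on 2L, a ratio of 2L to 2R of 0.53. Larvae had 549 larva-only peaks on 2R and 662 on 2L, a ratio of 1.21. Paired peaks stood at 0.61 (S2) and 0.59 (larva), so the lean of S2-only peaks to 2R resembled that of paired peaks. The span is 23.0 Mb for 2L and 21.1 Mb for 2R, and larva-only peaks stood at 28.8 and 26.0 per Mb. With every peak set to 500 bp the larval ratio of numbers was 1.01, below the ratio of the spans, so the lean to 2L was not kept. On 2R 43.7% (40.9 to 46.5) of larva peaks were unpaired, below the 55.3% of the whole list, and 53.4% (50.8 to 55.9) of S2 peaks.

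The third chromosome showed the same contrast between its arms in weaker form. There were 1.52 larva-only peaks per S2-only peak on 3L (797 and 523) and 0.87 on 3R (689 and 796). The unpaired share of larva peaks was 56.8% (54.1 to 59.4) on 3L and 46.2% (43.6 to 48.7) on 3R. The shared sequence made up 54.7% of the larva coverage on 3R, 55.3% on 2R, 42.2% on 3L, 40.9% on 2L and 31.5% on X. As a share of S2 coverage it varied less, from 44.4% on 2R to 50.1% on 2L among these arms. The arms thus varied more in how much larval binding had an S2 counterpart than the reverse.

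Chromosome 4, which is small and largely heterochromatic, stood at the far end. It carried 72 larva peaks, of which 66 were larva-only (91.7%, 82.7 to 96.9), and 14 S2 peaks, of which 8 were S2-only. This is 8.25 larva-only peaks for each S2-only peak, against 1.23 over all arms. Larva-only peaks reached 48.8 per Mb there, the highest density of any arm, and S2-only peaks 5.92 per Mb, the lowest. Only 7.03% of the larva coverage on chromosome 4 was shared with S2 cells.

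**Figure D3:**
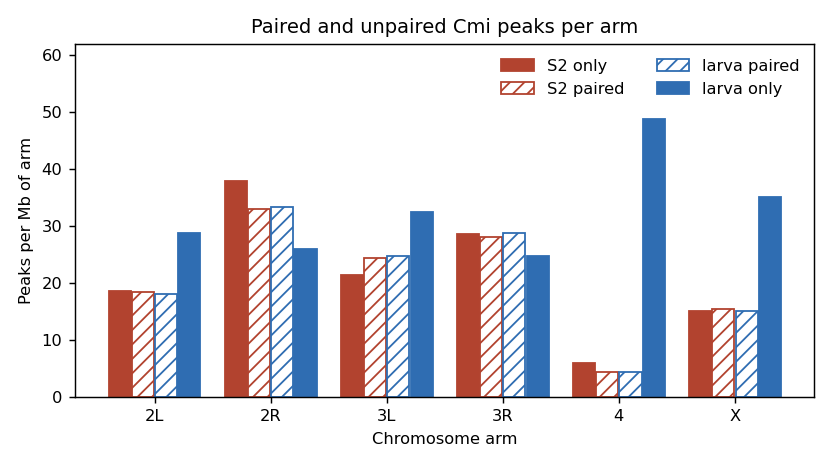
Peaks per Mb of chromosome arm (vertical axis) for S2-only (red), paired S2 (red hatched), paired larva (blue hatched) and larva-only peaks (blue) on each arm (horizontal axis); bars start at 0 and carry no error, since each list is 1 library. Larva-only bars stand highest on chromosome 4 (48.8) and X (35.2), and the S2-only bar on 2R (37.9).

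In 500 kb bins the balance of S2-only and larva-only peaks varied along the arms, although most bins held both. Only 12 bins had no S2-only peak and 4 had no larva-only peak. Of 244 bins, 92 (37.7%, 31.6 to 44.1) held more S2-only peaks, 148 (60.7%) more larva-only peaks, and 4 equal numbers. Larva-only peaks were the more numerous in all, with 3551 against 2894. With equal numbers of the widest peaks per list, bins with more S2-only peaks made up 45.5%. S2-only peaks were the more unevenly spread. Their number per bin had a median of 9, a maximum of 51 and a variance 10.4 times its mean, while for larva-only peaks the median was 13, the maximum 43 and the variance 4.89 times the mean. The 24 bins with the most peaks held 31.1% of S2-only and 21.5% of larva-only peaks. S2-only peaks were frequent where paired peaks were frequent (Spearman rho 0.69 over 244 bins), and larva-only peaks were not (rho 0.07 with paired larva peaks). Counts of S2-only and larva-only peaks ran weakly opposite (rho -0.20). All bins of a list come from 1 library, and these values are descriptions.

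**Figure D4:**
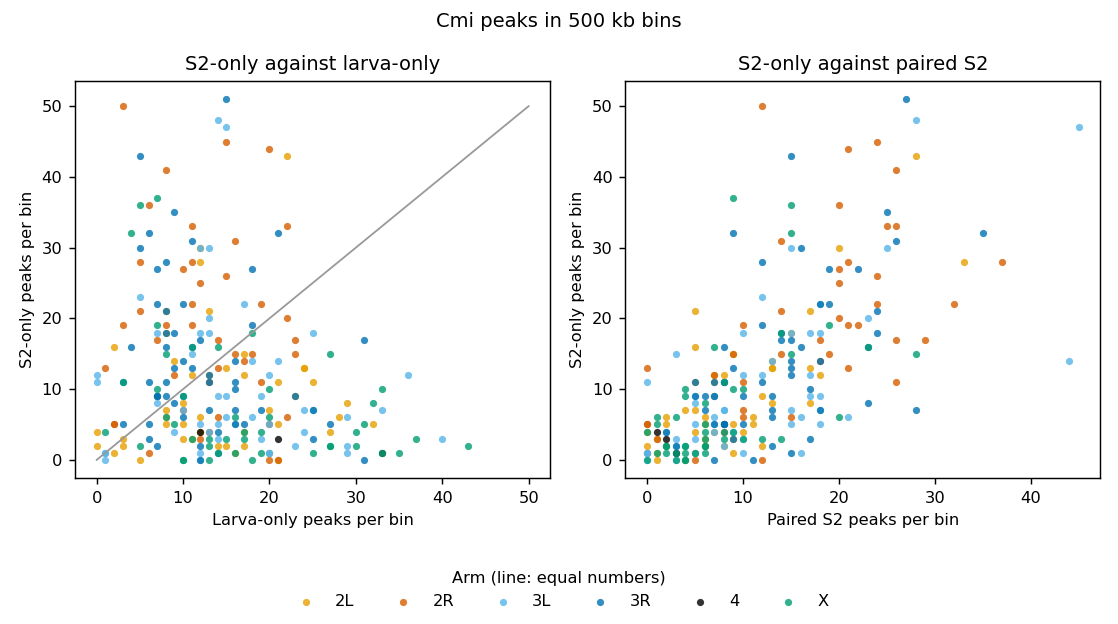
Numbers of Cmi peaks in 244 bins of 500 kb, coloured by arm: S2-only against larva-only peaks (left) and S2-only against paired S2 peaks (right); each point is a bin and the line marks equal numbers. In the left panel the bin with 43 larva-only peaks lies near the axis, with 2 S2-only ones. The bin with 51 S2-only peaks holds 15 larva-only ones, against a median of 13 per bin. In the right panel S2-only counts rise with paired counts.

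The bins richest in S2-only peaks were on 3R, 2R and 3L. The bin on 3R from 5000001 to 5500000 held 51 S2-only and 15 larva-only peaks. That on 2R from 1500001 to 2000000 held 50 S2-only and 3 larva-only peaks beside 12 paired S2 peaks, the largest excess of any bin. On 3L the bins from 500001 to 1000000 and from 3000001 to 3500000 held 48 and 47 S2-only peaks, with 14 and 15 larva-only ones. These 2 bins also held 28 and 45 paired S2 peaks, so they were rich in binding in either source. The fifth bin, on 2R from 14000001 to 14500000, held 45 S2-only and 15 larva-only peaks. By excess, the bin on 3R from 11500001 to 12000000 came second, with 43 S2-only against 5 larva-only peaks.

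Bins richest in larva-only peaks mostly held few S2 peaks. On X from 6500001 to 7000000 there were 43 larva-only and 2 S2-only peaks, with 6 paired S2 peaks. On 3L from 9000001 to 9500000 there were 40 and 3, and on X from 13000001 to 13500000 there were 37 and 3. The next, on 3L from 8000001 to 8500000, was mixed, with 36 larva-only and 12 S2-only peaks. On X from 17500001 to 18000000 there were 35 larva-only peaks, 1 S2-only peak and 1 paired S2 peak. Bins with at least 10 larva-only peaks and at least 3 times as many of them as S2-only peaks numbered 81. Bins with the reverse numbered 29, where the lists held 3551 larva-only and 2894 S2-only peaks in all. In the X bin from 17500001 the embryo and prepupa lists held 59 and 54 peaks, against medians of 59.5 and 36 per bin.

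Neighbouring bins often leaned the same way over several Mb. On 3L from 7000001 to 16500000, 19 bins in a row held more larva-only peaks, 419 in all against 90 S2-only peaks. On X a row of 12 bins from 15000001 to 21000000 held 259 against 37, and on 2L a row of 11 from 2500001 to 8000000 held 234 against 74. The longest rows with more S2-only peaks were 11 bins on 3R from 22500001 to 28000000, the end of that arm (209 S2-only against 99 larva-only), and 10 bins on 3L from 500001 to 5500000 (246 against 108). X was not poor in S2-only peaks throughout. Its bin from 9500001 to 10000000 held 37 of them against 7 larva-only peaks, although 34 of its 45 bins held more larva-only peaks.

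At finer scale, some peaks of one class followed each other in uninterrupted series. Of the series named here, that on X from 17632212 lay in the row of 12 bins on X. The others lay outside the rows of bins named above. On 2R from 1589267 to 1640025, 19 successive peaks were S2-only, within 50.8 kb. Of these 14 overlapped an embryo peak and 1 a prepupa peak. On 3R from 11839249 to 11876212, 18 S2-only peaks followed each other within 37.0 kb, 8 of them in the embryo list and 1 in the prepupa list. The next series, of 13 S2-only peaks on 2R from 4853 to 273559, spanned 268.7 kb, with 1 in the embryo list and 0 in the prepupa list. The 3 longest larval series held more peaks over more distance. On X from 17632212 to 18032315, 26 larva-only peaks in a row spanned 400.1 kb, 20 in the embryo and 17 in the prepupa list. On chromosome 4 from 88083 to 401389, 25 larva-only peaks followed each other over 313.3 kb, with 9 in the embryo and 6 in the prepupa list. On X from 11748860 to 12405393, another 25 did so over 657 kb, with 9 in the embryo and 15 in the prepupa list.

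Larva-only peaks were found in the other stages more often than S2-only peaks. These lists played no part in the pairing. On the arms the embryo list held 15013 peaks over 13.0 Mb and the prepupa list 9107 peaks over 6.79 Mb. A list with more coverage is easier to overlap, so shares in the embryo and prepupa lists are not on one scale. Of the S2-only peaks, 36.9% (35.1 to 38.7) overlapped an embryo peak and 9.12% (8.10 to 10.2) a prepupa peak. Of the larva-only peaks, 58.9% (57.3 to 60.5) overlapped an embryo peak and 60.9% (59.3 to 62.5) a prepupa peak. For paired peaks the embryo list held 79.9% (S2) and 77.5% (larva), and the prepupa list 77.2% and 77.4%. S2-only peaks were in neither list in 58.5% (56.7 to 60.3) of cases, larva-only peaks in 17.0% (15.8 to 18.3) and paired peaks in 5.25% (S2) and 6.05% (larva). Larva and prepupa are adjacent stages of the same animals' development, and S2-only peaks are by definition absent from the larva list.

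Among peaks of like width the larva-only shares were also the higher. Among peaks of 1000 to under 2000 bp, the prepupa list held 14.4% (11.3 to 18.1) of S2-only and 87.1% (84.5 to 89.4) of larva-only peaks, and the embryo list 37.3% (32.8 to 42.0) and 70.4% (67.0 to 73.6). Among peaks under 500 bp the prepupa list held 6.0% (4.73 to 7.48) and 39.4% (36.7 to 42.2). At 4000 bp or more, the prepupa list held 57.1% (37.2 to 75.5) of 28 S2-only and all of 24 larva-only peaks (interval from 85.8), and the embryo list 64.3% (44.1 to 81.4) and 83.3% (62.6 to 95.3), where the intervals overlapped. S2-only peaks that overlapped both lists were broader, with a median of 993 bp, than those in neither, with 543 bp. The low S2-only shares moved with the processing. With the 5750 widest peaks of every list they were 21.4% for the embryo and 5.92% for the prepupa, and with every peak set to 500 bp the prepupa share was 17.6%, while the larva-only shares stayed above them in each of these.

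**Figure D5:**
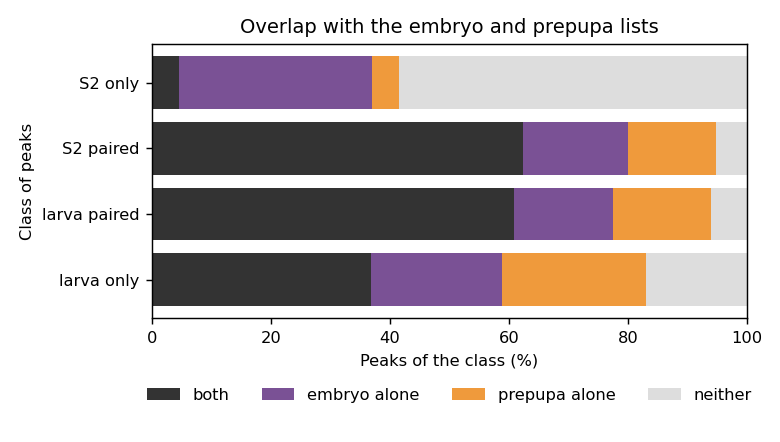
Share of S2-only, paired S2, paired larva and larva-only peaks (vertical axis, classes) that overlapped peaks of both the embryo and the prepupa list, of 1 of them or of neither (horizontal axis, %). S2-only peaks were in neither list in 58.5% of cases and larva-only peaks in 17.0%.

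On X the S2-only peaks had the fewest embryonic counterparts of the larger arms. The embryo list held 17.4% (13.5 to 21.9) of the 339 S2-only peaks on X, against 31.6% (27.2 to 36.3) on 2L, 38.4% on 3L, 40.9% on 2R and 43.2% (39.7 to 46.7) on 3R. Larva-only peaks showed no such dip, with 59.9% (56.4 to 63.3) on X and between 55.7% and 62.6% on the other 4 large arms. Paired S2 peaks on X were in the embryo list in 69.7% (64.5 to 74.5) of cases, against 78.3% to 83.8% on those arms. The embryo list itself was thinner on X, with 75.9 peaks per Mb against 128 to 149 on those arms, and the part of this in the low share was not tested. In the prepupa list, too, the S2-only share was lowest on X among these arms, at 5.60% (3.41 to 8.61), and highest on 3L, at 14.3% (11.4 to 17.6).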

How the data were processed

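The deposited lists give, in 3 columns, the sequence name, start and end of each Cmi peak, with no height, fold enrichment or p-value. The submitters' processing notes name BWA, MACS2 and dm3. Versions, threshold, pooling and use of the inputs are not given in the sources used, and for the embryo list no tool is stated. Peaks on the 6 arms were paired by at least 1 bp in either direction, linked peaks were joined into groups, and midpoints were counted in 500 kb bins, with the highest peak end of the 4 lists as the end of each arm. Medians have distribution-free binomial 95% intervals. The pairing was checked on made-up peaks against bedtools 2.31.1. Regions named are the 5 widest unpaired peaks of each list, the 5 groups with the most shared sequence, the 5 most unequal pairs each way, the 3 most divided peaks of each list, the 5 bins with the most unpaired peaks of each class and the 3 with the largest excess. The rows of bins, series of successive peaks, values by arm of the embryo and prepupa overlaps and the X bin at 9500001 were chosen after their values were seen. Members and rules were chosen with earlier results of these data known. The gene tables at hand use another build, so genes were not assigned and no sequence is shown. Alternatives were an overlap of 50% of the shorter peak, the midpoint rule, peaks above their list's median width, equal numbers of widest peaks, peaks of 500 bp, bins of 250 and 1000 kb, and base pairs in place of peaks. Python 3.11.15, numpy 2.4.6, scipy 1.17.1 and matplotlib 3.10.9 were used.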

Additional observations from a re-analysis of the deposited data

Results flagged for a closer look

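Peaks outside the 6 main arms entered no comparison, and both lists held more of them than the 3 that a count of 0 allows. The S2 list had 299 such peaks and the larva list 61. On the unplaced sequences U and Uextra there were 71 and 148 S2 peaks against 12 and 29 larva peaks. On the heterochromatic parts 3LHet, 2RHet and 3RHet there were 27, 22 and 19 S2 peaks against 2, 3 and 1 larva peaks. The other heterochromatic parts held few, with 2 in either list on 2LHet and on XHet, and 3 against 0 on YHet. The mitochondrial genome was the reverse, with 5 peaks in S2 cells and 10 in larvae.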

How the results depend on the processing

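The paired share of S2 and of larva peaks was 45.4% and 41.8% with 50% of the shorter peak covered, 40.2% and 37.4% with the midpoint rule, 53.2% and 48.0% for peaks above the median width, 48.0% and 46.8% for equal numbers of the widest, and 32.7% and 29.0% with peaks of 500 bp. The shared part of the S2 and larva coverage was 45.8% and 45.8% with wide peaks, 45.6% and 45.6% with equal numbers and 19.5% and 17.5% with peaks of 500 bp, which removes the flanks of broad peaks by construction. Bins with more S2-only peaks made up 45.5% with equal numbers of widest peaks and stayed within their interval under the other 6 alternatives. The median log2 width ratio stayed between 0.06 and 0.08 under its 4 alternatives. For the other results 52 alternatives were tried. A reversal of direction, here a crossing of 1, could be seen only in the ratios between arms and of median widths, and 0 of these reversed. The arms differ in span, and the 2L to 2R ratio of larva-only peaks came to 1.01 with peaks of 500 bp, below the ratio of the spans. A broad peak meets another more easily, so the ratio of median widths had little room to cross 1. The shares of peaks on X and in the embryo or prepupa list have no direction to reverse, so the 0 does not bear on them. Of the 52 alternatives, 25 stayed within the interval of the reported value and 27 left it. The cause was not tested. No paired analysis was possible because each group has 1 library. Unknown depth limits every statement on absent peaks.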

Other observations

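Peak numbers per 500 kb bin had their lowest correlations where the S2 list was involved. The embryo list was not far above, and only larvae and prepupae stood close together. Over 244 bins the Spearman rho of S2 counts was 0.53 with larvae, 0.50 with prepupae and 0.47 with embryos, whereas larvae and prepupae stood at 0.85 and embryos at 0.61 with larvae and 0.63 with prepupae. Bins with fewer than 5 peaks numbered 25 in S2 cells, 11 in larvae, 10 in prepupae and 3 in embryos. These values are across bins of 1 library per list, which differ in length, and carry no test.

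Near the centromere S2-only peaks outnumbered larva-only peaks on 2L, 2R and 3L, and not on 3R and X. With each arm divided into 10 equal parts, the part of 2R next to the centromere held 81 S2-only and 12 larva-only peaks, that of 3L 45 and 18, and that of 2L 44 and 34. The same part of 3R went the other way, with 32 S2-only and 84 larva-only peaks, as did that of X with 21 and 40. In the part at the tip, S2-only peaks were the more frequent on 2L (83 against 45), 3L (132 against 69) and 3R (119 against 52), and larva-only peaks on 2R (81 against 24) and X (73 against 58).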
